A study of Homo sapiens with 4 samples.

Results

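The genes described are 9 target and pathway genes of YAP and TEAD, namely CTGF, CYR61, ANKRD1, AMOTL2, AJUBA, LATS2, F3, AXIN1 and TEAD4. They were chosen by symbol, as genes of this pathway that are sensitive to cell density, and all 9 were found among the 26506 gene symbols of both expression tables. The tables come from RNA sequencing of HeyC2 and SKOV3, 2 established human ovarian cancer cell lines. In each line, cells labelled TET1 overexpressed had been transfected with 3 μg of the plasmid pCMV6/TET1, which carries the full-length DNA demethylase TET1, and are called TET1-reprogrammed here. The control cells are labelled Wild-type and received the empty plasmid, and both kinds of cells were selected and kept in 400 μg/ml Geneticin, so the controls share the selection. There was 1 library per group, 4 in all, so no difference below has a replicate check and no p-value is given. Whether a transfected line is a pool or a single clone, and how dense the cultures were at harvest, is not given in the sources used here.

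The Hippo pathway is a kinase cascade in which STK3 and STK4 (MST2 and MST1) activate LATS1 and LATS2, which phosphorylate the coactivators YAP and TAZ and hold them in the cytoplasm. When the cascade is weak, as in sparse, spread or stretched cells, YAP and TAZ enter the nucleus and bind the TEAD factors (TEAD1 to TEAD4), which recognise the DNA letters GGAATG. CTGF, CYR61 and ANKRD1 are the usual reporter genes of this step, LATS2, AMOTL2 and AJUBA are targets that also act on the cascade, and F3 encodes tissue factor. TEAD4 is a DNA-binding partner rather than a classical target, and AXIN1, a scaffold of the β-catenin destruction complex, is not among the usual targets.

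The promoter sequences of CTGF, ANKRD1 and F3 are shown because CTGF and ANKRD1 held the most TEAD motifs of the 7 genes with a promoter entry, and F3 was far from its control in both lines. They are the 250 bases upstream of the annotated start in RefSeq (GRCh38.p14), 5′ to 3′ on the gene's strand. Capitals mark GGAATG, the TEAD motif, or in F3 TGAGTCA, the motif of the transcription factor AP-1, a frequent partner of TEAD at enhancers. Both strands were searched (CATTCC and TGACTCA on the reverse), and the 2 motifs share no letters in these windows.
CTGF, chr6:131951373-131951622, minus strand: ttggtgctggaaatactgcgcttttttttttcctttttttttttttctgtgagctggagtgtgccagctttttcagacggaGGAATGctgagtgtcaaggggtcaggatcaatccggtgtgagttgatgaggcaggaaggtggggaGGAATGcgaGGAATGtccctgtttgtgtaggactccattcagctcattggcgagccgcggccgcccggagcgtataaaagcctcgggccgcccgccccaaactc
ANKRD1, chr10:90921088-90921337, minus strand: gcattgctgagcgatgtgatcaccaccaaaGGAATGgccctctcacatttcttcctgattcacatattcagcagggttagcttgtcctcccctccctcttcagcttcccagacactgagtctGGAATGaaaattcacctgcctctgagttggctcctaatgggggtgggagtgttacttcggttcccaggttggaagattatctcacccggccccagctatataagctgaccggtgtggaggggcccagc
F3, chr1:94541760-94542009, minus strand: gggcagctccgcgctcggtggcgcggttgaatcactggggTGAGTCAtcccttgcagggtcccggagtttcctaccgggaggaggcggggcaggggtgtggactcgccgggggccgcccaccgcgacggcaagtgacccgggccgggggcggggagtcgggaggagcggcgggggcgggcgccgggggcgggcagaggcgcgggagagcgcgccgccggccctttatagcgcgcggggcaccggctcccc

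CTGF held 3 copies of the TEAD motif and ANKRD1 held 2. AMOTL2 and AJUBA had 2 start sites each in the table, and 1 window of each held 1 copy. The windows of LATS2, F3 and AXIN1 held 0 copies, and CYR61 and TEAD4 had no entry. Of 35116 windows of the same length, 11.9% held at least 1 TEAD motif, 0.928% held 2 or more and 0.0797% held 3 or more, and 4.20% held the AP-1 motif that F3 held once. These letters describe the windows only, and binding was not measured here.

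Values are FPKM, fragments per kilobase of transcript scaled to sequencing depth, which correct for transcript length, so levels can be compared between genes. In the deposited tables each TET1 library had been multiplied by a constant, 3.23 in HeyC2 and 1.35 in SKOV3, that made GAPDH equal to its control value. All levels below are FPKM with this factor divided out. A change is log2((TET1 + 1)/(control + 1)) minus the median of that value over all genes with a mean of at least 1 FPKM, which was 0.06 in HeyC2 and 0.19 in SKOV3. A gene is called higher or lower when this relative change is at least 1.5-fold, or 0.58 on the log2 scale. All 9 genes passed the filter in every comparison. Intervals given with a change are 95% exact counting intervals of the relative ratio without the added 1, from fragments estimated per gene, and cover counting error but not variation between cultures. In these bulk samples, fewer cells that express a gene and less RNA per cell cannot be told apart.

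The estimated depth was between 6660000 and 7460000 fragments per library. TET1 RNA stood at 0.2 FPKM in control HeyC2 cells and 0.52 FPKM after reprogramming, and at 0.43 and 1.8 FPKM in SKOV3. The relative ratio of TET1 was 2.50 (interval 1.33 to 5.12) in HeyC2 and 3.66 (2.42 to 5.72) in SKOV3. However, TET1 did not pass the filter of 1 FPKM in HeyC2 and passed it in SKOV3 only through the TET1 library. Of the epithelial markers, KRT8, KRT18 and PAX8 were above 70 FPKM in all 4 libraries, while CDH1 and MUC16 were at 0 and EPCAM at or below 0.38 FPKM in HeyC2. The 4 leukocyte markers were below 1 FPKM in every library. The summed level of 8 fibroblast markers was 2.14, 3.15 and 1.93 FPKM in HeyC2 control, HeyC2 TET1 and SKOV3 control and 35.89 FPKM in SKOV3 TET1, mostly COL1A1 at 27.66 FPKM, and its part in the results was not tested. Of the endothelial markers PECAM1, VWF and KDR stayed below 1 FPKM, while CDH5 was at 18.85 and 94.63 FPKM in the HeyC2 libraries.

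In SKOV3 all 9 genes lay below the all-gene median after TET1 reprogramming, against 50% of all genes, and 5 were called lower, namely CTGF, CYR61, ANKRD1, LATS2 and F3. Of the 13016 genes compared in SKOV3, 18.2% were called lower and 20.7% higher. The median relative change of the 9 genes was -0.61 on the log2 scale. In HeyC2, 3 of the 9 genes were called higher (ANKRD1, AMOTL2 and F3) and 0 were called lower, where 12.5% of 11896 genes were higher and 9.19% lower. The HeyC2 median was 0.16, and 7 of 9 genes lay above the all-gene median. The change in HeyC2 was above that in SKOV3 for 9 of 9 genes (53.7% of all genes), with TEAD4 on the other side in 4 of the alternatives tried, and by at least 1.5-fold for 6 of 9 (22.5% of all genes). In the deposited values without centring, all 9 genes were higher in HeyC2, where the all-gene median itself was 1.61. There 1 gene (AJUBA) was higher and 2 (ANKRD1 and F3) were lower in SKOV3, where the all-gene median was 0.59. Without ANKRD1, which reached the HeyC2 filter only through the TET1 library, 2 of 8 genes were higher in HeyC2, 4 of 8 were lower in SKOV3, and the change in HeyC2 was above that in SKOV3 for 8 of 8, by at least 1.5-fold for 5. This difference between lines rests on 1 library per group and was not tested.

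**Figure D1:**
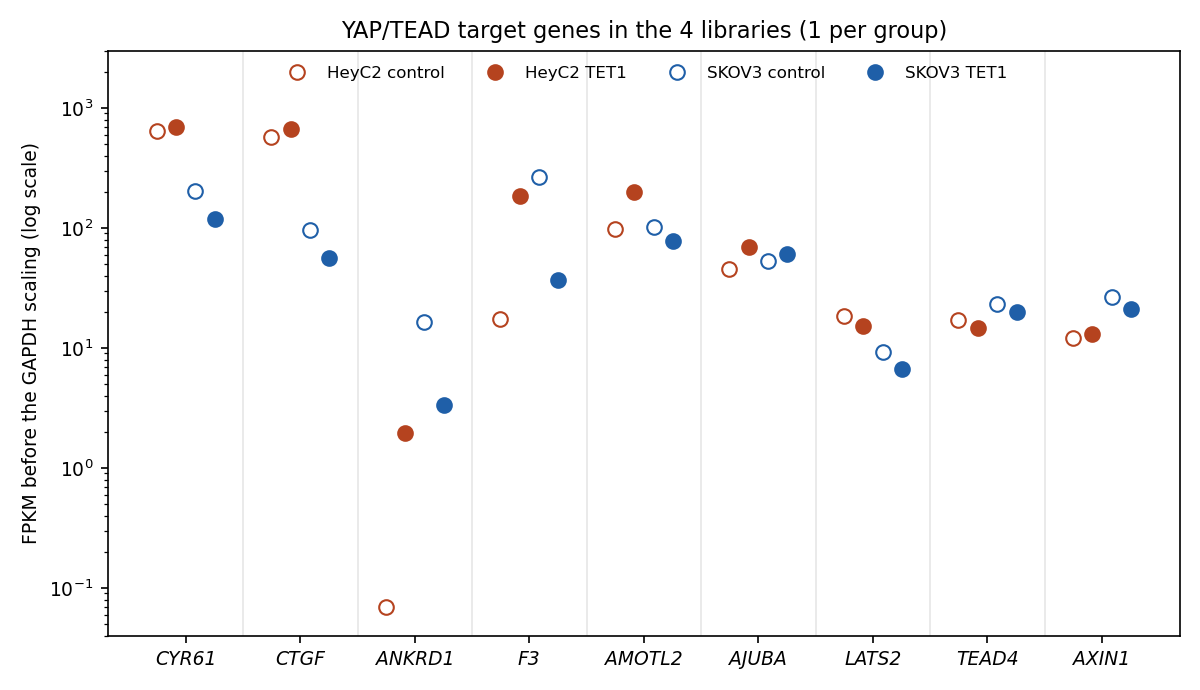
Level of each of the 9 genes in the 4 libraries, in FPKM before the GAPDH scaling on a log axis, with 1 point per library (open, control; filled, TET1; red, HeyC2; blue, SKOV3). CYR61 and CTGF stood above 500 FPKM in both HeyC2 libraries, and ANKRD1 ranged from 0.07 to 16.48 FPKM.

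CYR61 and CTGF encode secreted matricellular proteins of the CCN family, which bind integrins and shape adhesion and matrix. CYR61 (now CCN1; GRCh37 chromosome 1, 86046444 to 86050272, plus strand) was at 643.78 FPKM in the HeyC2 control, 688.05 FPKM in HeyC2 TET1, 204.19 FPKM in the SKOV3 control and 118.52 FPKM in SKOV3 TET1. Both HeyC2 libraries were thus above both SKOV3 libraries, and the HeyC2 libraries were close to each other. The relative change of CYR61 was 0.04 in HeyC2, with a counting interval of -0.00 to 0.08, and -0.97 in SKOV3, with an interval of -1.06 to -0.89. The SKOV3 call is lost when the change is centred on the 500 genes nearest in expression (-0.58) or not centred as deposited (-0.35). It is also lost at a 2-fold threshold. CYR61 was the gene of rank 105 of 26506 in the HeyC2 control and rank 600 in SKOV3 TET1.

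CTGF (now CCN2; chromosome 6, 132269316 to 132272512, minus strand), whose promoter held 3 TEAD motifs, was at 568.39, 662.16, 96.83 and 56.17 FPKM in HeyC2 control, HeyC2 TET1, SKOV3 control and SKOV3 TET1. The order of the libraries was the same as for CYR61. Its relative change was 0.16 in HeyC2 (interval 0.12 to 0.20), not called, and -0.97 in SKOV3 (-1.10 to -0.85), called lower. The SKOV3 call is lost as deposited without centring (-0.35) and at a 2-fold threshold. In fold terms CTGF was 1.12-fold in HeyC2 and 0.511-fold in SKOV3 of its control, relative to all genes. As deposited, CTGF reads 2141.69 FPKM in HeyC2 TET1, and most of that rise over the control is the GAPDH factor. Exons of CTGF overlap LINC01013 on the opposite strand, which stood at 0.16 FPKM without and 0.53 FPKM with TET1 in HeyC2 and at 0 in SKOV3.

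ANKRD1 encodes a stretch-responsive ankyrin repeat protein of muscle and is the third common reporter of YAP and TEAD. ANKRD1 (chromosome 10, 92671853 to 92680844, minus strand) was at 0.07 FPKM in the HeyC2 control, 1.96 FPKM in HeyC2 TET1, 16.48 FPKM in the SKOV3 control and 3.33 FPKM in SKOV3 TET1. The SKOV3 control was the highest library and the HeyC2 control was almost without signal, an order that differs from that of CTGF and CYR61. In SKOV3 the relative change was -2.21, from about 191 fragments in the control to about 36 in TET1, and the interval without the added 1 was -3.05 to -1.98.
In HeyC2 the relative change of ANKRD1 was 1.41 with the added 1. It rests on about 1 fragment in the control (estimate 0.843) and 21.4 in TET1. The ratio without the added 1 was 26.9, with an interval of 3.57 to 919. ANKRD1 passed the filter of 1 FPKM in HeyC2 only through the TET1 library, and it is not among the genes compared there with a filter of 5 FPKM or with upper-quartile scaling.

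F3 encodes tissue factor, the cell-surface receptor of coagulation factor VII that starts clotting and is often high on tumour cells. F3 (chromosome 1, 94994729 to 95007315, minus strand) was at 17.34 FPKM in the HeyC2 control, 183.81 FPKM in HeyC2 TET1, 265.81 FPKM in the SKOV3 control and 37.18 FPKM in SKOV3 TET1. The line that was low in the control was high with TET1, and the reverse held in the other line. The relative change was 3.27 in HeyC2, where the ratio without the added 1 was 10.2 (interval 8.98 to 11.6). It was -3.00 in SKOV3, where that ratio was 0.122 (0.112 to 0.134). In HeyC2 0.101% of genes had a relative change as high as F3, and in SKOV3 0.361% had one as low.
F3 was therefore called higher in HeyC2 and lower in SKOV3, as was ANKRD1, whose HeyC2 value is weak as given above. Over all 11136 genes compared in both lines, 1.77% were higher in HeyC2 and lower in SKOV3, 1.38% were lower and higher, 3.56% were higher in both and 2.54% were lower in both. The change in HeyC2 minus that in SKOV3 was 6.27 for F3 on the log2 scale, and 4 of the 11136 genes, F3 included, had a difference as high. For ANKRD1 it was 3.62.

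**Figure D2:**
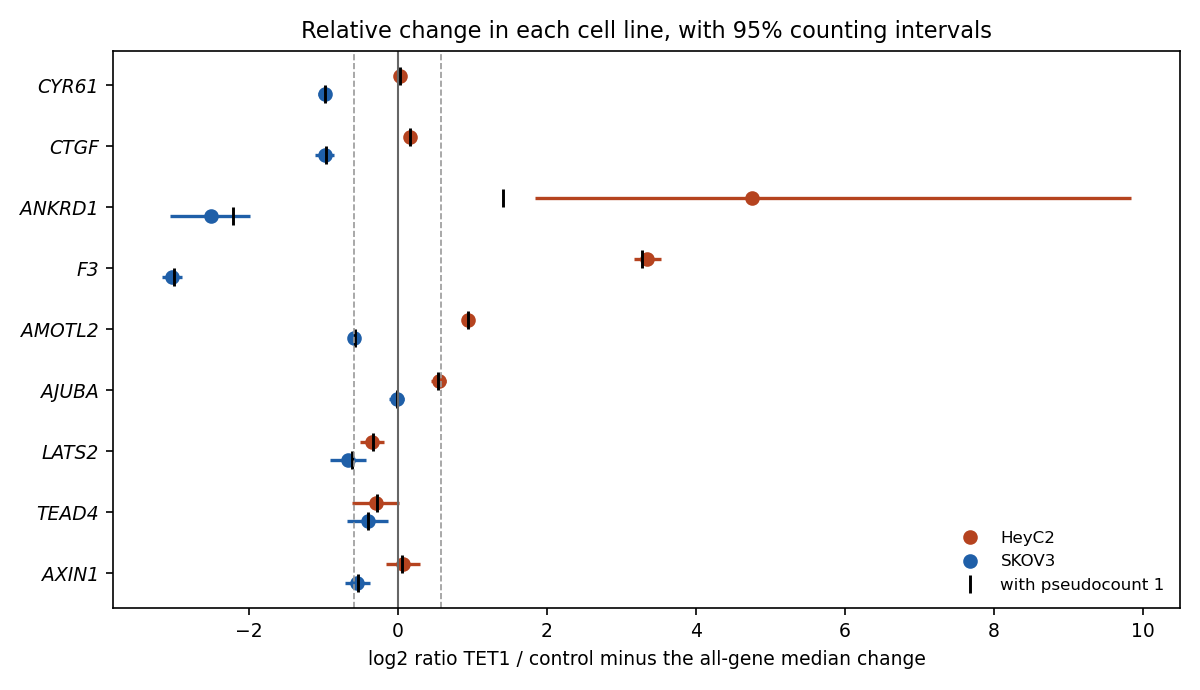
Relative log2 change of each gene, TET1 against control, in HeyC2 (red) and SKOV3 (blue). Circles are ratios without the added 1 with their 95% counting intervals, black ticks are the values with the added 1, the solid line is the all-gene median and dashed lines mark 1.5-fold. ANKRD1 in HeyC2 has the widest interval, 1.84 to 9.84, and F3 lies at opposite ends.

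AMOTL2, AJUBA and LATS2 are targets that feed back on the cascade. AMOTL2 is an angiomotin that holds YAP at junctions and on actin, AJUBA is a LIM protein that restrains LATS kinases, and LATS2 is the kinase that phosphorylates YAP.
AMOTL2 (chromosome 3, 134074189 to 134094321, minus strand) was at 98.71, 198.18, 101.31 and 77.47 FPKM in HeyC2 control, HeyC2 TET1, SKOV3 control and SKOV3 TET1. The control libraries of both lines were close, and HeyC2 TET1 stood above the other 3 libraries. Its relative change was 0.94 in HeyC2 (interval 0.89 to 1.01), called higher. In SKOV3 it was -0.57 (-0.66 to -0.50), just short of the 1.5-fold call. Its exons share their strand with the pseudogene RPL39P5, so its counts are less certain.
AJUBA (chromosome 14, 23440386 to 23451760, minus strand) was at 45.77, 69.72, 53.04 and 60.17 FPKM in HeyC2 control, HeyC2 TET1, SKOV3 control and SKOV3 TET1. It had the narrowest range of the 9 genes, with a ratio of 1.52 between the highest and lowest library. The relative change was 0.54 in HeyC2 (0.45 to 0.65), just short of the call, and -0.01 in SKOV3 (-0.11 to 0.09). The sign in SKOV3 depends on the centring, since the uncentred change was 0.18. Exons of AJUBA overlap another annotated gene on the same strand, so its counts too are less certain.
LATS2 (chromosome 13, 21547175 to 21635725, minus strand) was at 18.5, 15.13, 9.29 and 6.7 FPKM in HeyC2 control, HeyC2 TET1, SKOV3 control and SKOV3 TET1. In both lines the TET1 library was the lower one. The relative change was -0.33 in HeyC2 (-0.51 to -0.19) and -0.61 in SKOV3 (-0.90 to -0.42), where the call is only just reached and is lost under 6 of the other scalings and filters tried.

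TEAD4 and AXIN1 had the narrowest ranges over the libraries after AJUBA, with ratios of 1.59 and 2.23 between the highest and lowest. TEAD4 (chromosome 12, 3068496 to 3149842, plus strand) was at 17.16, 14.61, 23.24 and 20.09 FPKM in HeyC2 control, HeyC2 TET1, SKOV3 control and SKOV3 TET1. Its relative change was -0.28 in HeyC2 (-0.61 to 0.02) and -0.39 in SKOV3 (-0.68 to -0.13), neither called. The difference between lines was 0.12. Without the added 1 it was 0.11, with an approximate counting interval of -0.29 to 0.52. TEAD4 lies on the short arm of chromosome 12, where the 153 genes compared in HeyC2 had a median of -0.72 and 62.1% were called lower. On that arm 120 of 153 genes had a change at or below that of TEAD4. In SKOV3 the median of the arm was 0.05 over 145 genes.
AXIN1 (chromosome 16, 337440 to 402723, minus strand) was at 12, 13.14, 26.73 and 21.01 FPKM in the same order of libraries. Both SKOV3 libraries were above both HeyC2 libraries. The relative change was 0.06 in HeyC2 (-0.16 to 0.30) and -0.53 in SKOV3 (-0.71 to -0.37), neither called.

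The other differences between the lines were 1.52 for AMOTL2, 1.13 for CTGF, 1.01 for CYR61, 0.59 for AXIN1, 0.55 for AJUBA and 0.28 for LATS2, on the log2 scale. The median over the 9 genes was 1.01. A difference as high as that of AMOTL2 was found in 356 of 11136 genes, as high as that of CTGF in 801 and as high as that of CYR61 in 1035, each gene included.
Around the genes, the genes within 2 Mb had medians between -0.13 and 0.47 in HeyC2, except for TEAD4 at -0.97 over 21 genes, and between -0.35 and 0.47 in SKOV3. AMOTL2 was the gene with the highest neighbour medians, 0.47 in both lines over 17 genes, while its own change was 0.94 in HeyC2 and -0.57 in SKOV3.

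**Figure D3:**
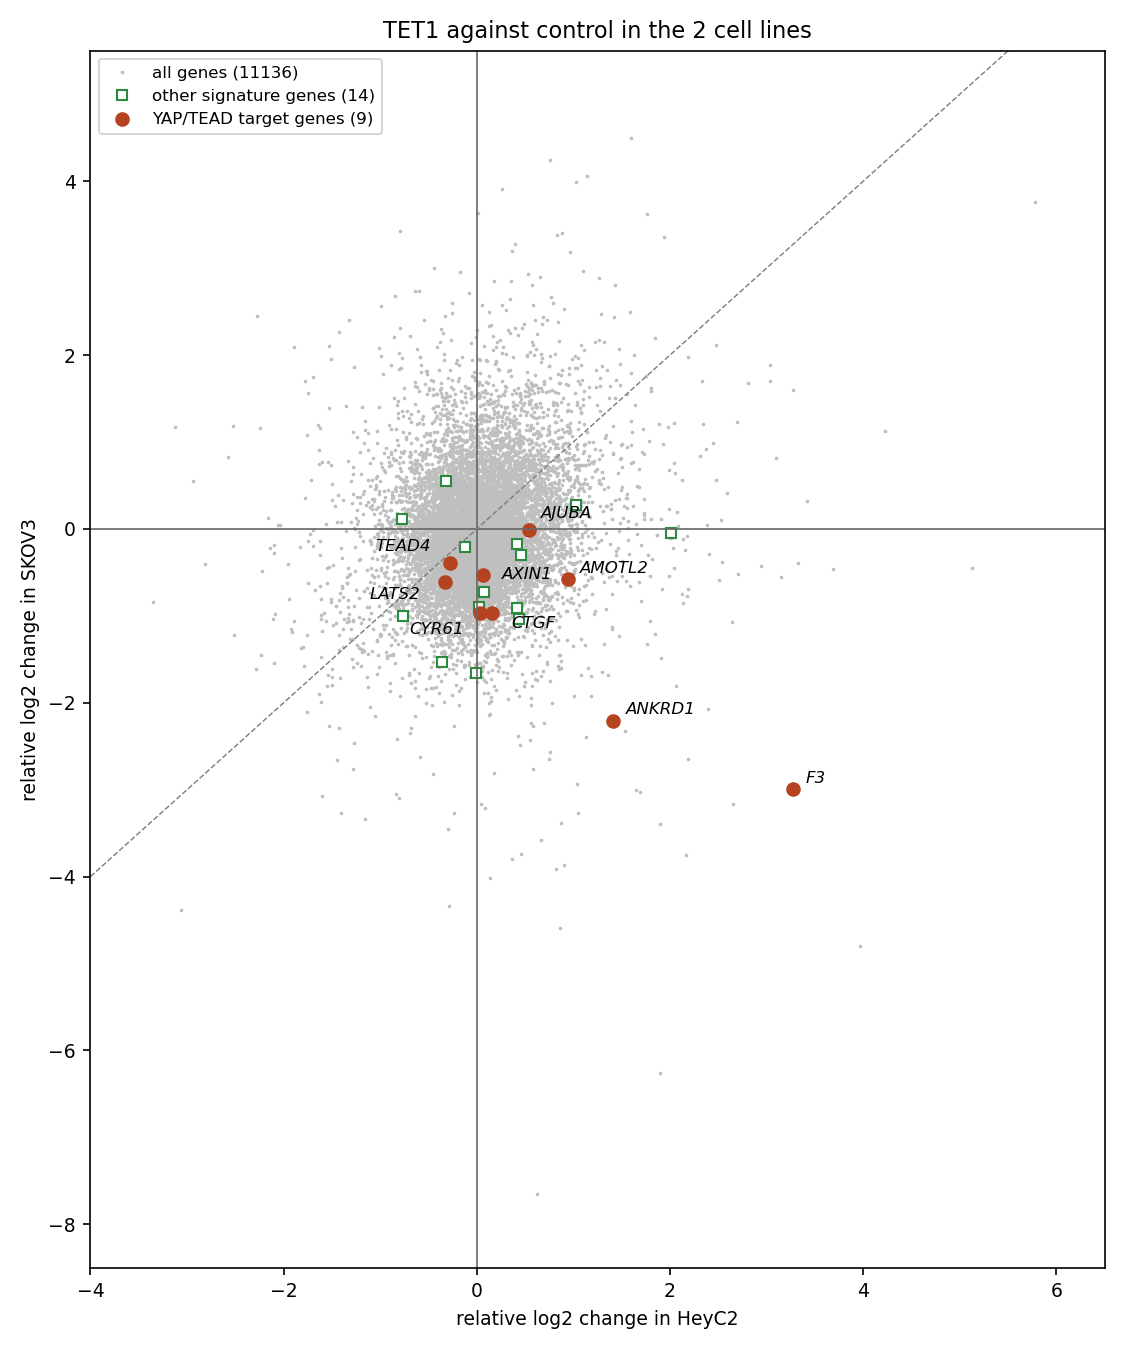
Relative log2 change in HeyC2 (horizontal) and SKOV3 (vertical) for the 11136 genes compared in both lines (grey), the 9 YAP/TEAD genes (red) and 14 other genes of a YAP/TAZ target signature (green squares), with a dashed line at equal changes. All 9 genes lie below the dashed line, and F3 at 3.27 and -3.00 and ANKRD1 at 1.41 and -2.21 lie in the lower right.

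Between the control libraries, 3 of the 9 genes were called higher and 3 lower in HeyC2, shares close to those of all genes. CTGF (relative log2 difference 2.81, HeyC2 minus SKOV3), CYR61 (1.92) and LATS2 (1.19) were higher, as were 29% of 12488 genes. ANKRD1 (-3.76), F3 (-3.60) and AXIN1 (-0.83) were lower, as were 28.6% of genes. AMOTL2 (0.23), AJUBA (0.06) and TEAD4 (-0.15) were not called. Without the added 1, CTGF was 7.07-fold (interval 6.69 to 7.46) and F3 was 0.0785-fold (0.0693 to 0.0889) in HeyC2 of its SKOV3 level. In the TET1 libraries CYR61 and CTGF were again the highest of the 9 genes in HeyC2, and CYR61 and AMOTL2 in SKOV3. These comparisons share the control libraries with those above, so their values are set side by side only.

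The 10 effectors and cofactors, which include YAP1, WWTR1 and the TEAD genes, had a median relative change of 0.03 in both lines, with members on both sides. For the counts in this and the following lists, 12.5% of all genes were higher and 9.19% lower in HeyC2. In SKOV3 these shares were 20.7% and 18.2%. YAP1 was at 48.23 and 52.11 FPKM in HeyC2 control and TET1 and at 47.42 and 37.03 FPKM in SKOV3, with relative changes of 0.05 and -0.54, neither called. WWTR1, which encodes TAZ, had relative changes of -0.21 in HeyC2 and 0.16 in SKOV3. Of 8 effectors and cofactors that passed the filter, 1 was higher (VGLL3, 0.93) and 1 lower (TEAD1, -0.85) in HeyC2, and 3 were higher (VGLL4 at 1.14, TEAD2 at 1.04 and VGLL3 at 0.64) and 0 lower in SKOV3. VGLL3 and VGLL4 are cofactors that bind TEAD in place of YAP. TEAD1 was the most abundant TEAD gene in the HeyC2 control at 23.53 FPKM, and TEAD4 was the most abundant of the 4 after it. TEAD2 was at 12.52 FPKM in the SKOV3 control and 30.77 FPKM in SKOV3 TET1, above the other 3 TEAD genes there. VGLL1 and VGLL2 were listed at 0 in all libraries.

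The Hippo cascade and its upstream regulators, 25 listed genes that include AMOTL2, AJUBA and LATS2, had a median of -0.12 in HeyC2 and -0.32 in SKOV3. In HeyC2, 1 of 22 was higher (AMOTL2) and 2 were lower (STK3, -0.92, and PTPN14, -0.77). In SKOV3, 2 of 24 were higher (DCHS1, 1.79, and AMOT, 1.55) and 3 were lower (WWC1 at -0.72, RASSF1 at -0.64 and LATS2). However, 0 were lower there with no filter, without centring, with upper-quartile scaling or with TPM rescaling. With no filter the centring removed nothing, and in the other settings named the all-gene median was not subtracted. That median was 0.19 without centring before the GAPDH scaling and 0.59 as deposited. It was 0.18 with upper-quartile scaling and 0.28 with TPM rescaling. STK3 is the upstream kinase, DCHS1 a giant cadherin, PTPN14 a phosphatase that binds YAP, and WWC1 (KIBRA) a scaffold that activates LATS.
Of 15 paralogs of the 9 genes, 0 were higher and 1 was lower (TEAD1) of 8 that passed the filter in HeyC2. In SKOV3, 4 were higher (AXIN2, AMOT, TEAD2 and ANKRD23) and 1 was lower (ANKRD2) of 13. NOV, the other CCN gene with signal in all libraries, was between 15.88 and 21.52 FPKM with relative changes of 0.13 in HeyC2 and -0.17 in SKOV3, while WISP1 and WISP3 were listed at 0. LATS1 changed by 0.16 and -0.41, AMOTL1 by -0.08 and 0.15, LIMD1 by -0.37 and -0.11 and WTIP by 0.25 and -0.32 in HeyC2 and SKOV3. None of these 5 paralogs was called. AXIN2, the paralog of AXIN1 and a target of Wnt signalling, was at 0.49 FPKM in the SKOV3 control and 4.58 FPKM in SKOV3 TET1, a relative change of 1.71. It reached the SKOV3 filter only through the TET1 library. ANKRD2 was at 0 FPKM in both HeyC2 libraries and ANKRD23 at or below 0.67 FPKM there.

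A 22-gene signature of YAP and TAZ targets, written from general knowledge, holds 6 of the 9 genes. Of the 16 signature genes outside them, 15 passed the filter in each line. The shares of all genes called were 12.5% higher and 9.19% lower in HeyC2, and 20.7% and 18.2% in SKOV3. In HeyC2, 3 were higher (FJX1 at 2.14, IGFBP3 at 2.01 and ARHGEF17 at 1.02) and 2 lower (PTPN14 and MYOF, both -0.77), with a median of 0.08. In the deposited values without centring all 16 were higher, where the all-gene median itself was 1.61. In SKOV3, 1 was higher (TGFB2, 0.97) and 7 were lower, with a median of -0.30. The lowest were NT5E, which encodes the ectonucleotidase CD73, at -1.66, the growth arrest gene GADD45A at -1.53 and DOCK5 at -1.04. Of the 14 that could be compared in both lines, 12 had the higher change in HeyC2, 10 of them by at least 1.5-fold. The other 2 had it in SKOV3 by at least 1.5-fold. Over all genes, 53.7% had the higher change in HeyC2, and 22.5% by at least 1.5-fold.
A further 11 targets outside the signature gave 2 higher (DLC1, 0.85, and ARHGAP29, 0.75) and 3 lower (BIRC5 at -1.38, GLI2 at -0.84 and ADAMTS1 at -0.69) of 10 in HeyC2, and 8 lower of 11 in SKOV3. Their medians were 0.06 and -1.15. In SKOV3 the lowest was ADAMTS1, a secreted protease, at -2.35, followed by EDN1 at -1.56 and THBS1 at -1.52.

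**Figure D4:**
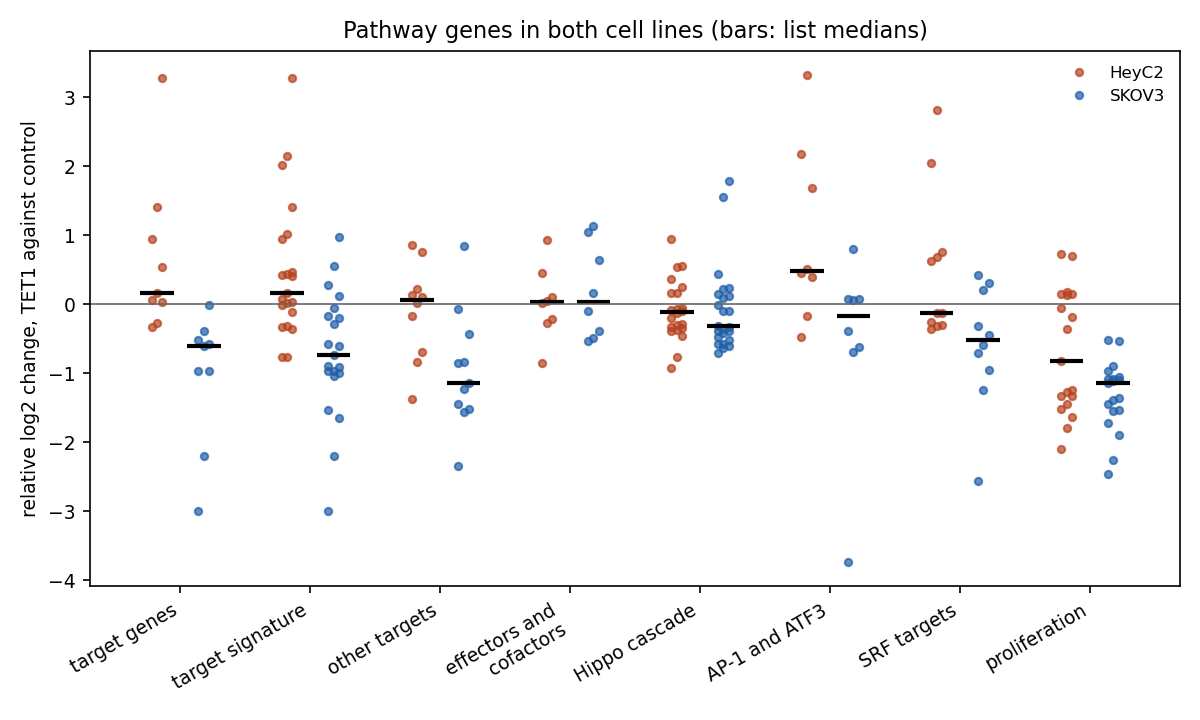
Relative log2 change, TET1 against control, of each gene that passed the filter in 8 gene lists, in HeyC2 (red) and SKOV3 (blue), with list medians as black bars. The 9 genes have medians of 0.16 and -0.61, and the proliferation genes of -0.82 and -1.14.

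Genes of related programmes also differed, and their part in the values above was not tested. The counts stand beside 12.5% of all genes higher and 9.19% lower in HeyC2, and 20.7% and 18.2% in SKOV3. Of 8 genes of AP-1 and ATF3, 3 were higher in HeyC2 (FOS at 3.32, JUNB at 2.18 and FOSB at 1.68) and 0 lower, with a median of 0.49. In SKOV3, 1 was higher (FOSL2, 0.80) and 3 were lower (FOSL1 at -3.74, JUNB at -0.69 and FOSB at -0.62), with a median of -0.17. Only FOSL1 was lower in SKOV3, and the median was positive, from 0.01 to 0.45, under several alternatives. These were no filter, no centring, upper-quartile scaling, TPM rescaling and centring on the 500 genes nearest in expression. Without centring, the all-gene median was 0.19 before the GAPDH scaling and 0.59 as deposited. It was 0.18 with upper-quartile scaling and 0.28 with TPM rescaling, and the list median lay below it in each of these. With no filter the centring removed nothing, and the list median was 0.03, the same as before the GAPDH scaling without centring. With the nearest-gene centring the list median was 0.06, above that of all genes. FOSL1 was at 131.97 FPKM in the SKOV3 control and 10.38 FPKM in SKOV3 TET1. Targets of the serum response factor SRF, which answers to actin, had 5 higher of 11 in HeyC2 (highest MYL9, 2.81) and 5 lower of 10 in SKOV3 (lowest TAGLN, -2.57). Their medians were -0.13 and -0.52, and between 2 and 5 were lower in SKOV3 over the filters and scalings tried.
Of 19 proliferation genes, 10 were lower and 2 higher in HeyC2, and 17 were lower and 0 higher in SKOV3. Their medians were -0.82 and -1.14. In the deposited values without centring the HeyC2 median was 0.83, below the all-gene median of 1.61 there. The lowest were MKI67 in HeyC2, at -2.10, and RRM2 in SKOV3, at -2.46. In the control libraries all 19 were lower in HeyC2 than in SKOV3, with a median of -1.69. Of 8 epithelial markers that passed the filter in SKOV3, 2 were higher (highest CDH1, 0.98) and 2 lower, with a median of 0.11. The 2 lower ones were the keratin genes KRT7 and KRT19. They were at 1537.2 and 255.14 FPKM in the SKOV3 control and at 21.96 and 0.46 FPKM in SKOV3 TET1. In HeyC2, 2 of 6 epithelial markers were higher (highest KRT7, 1.90) and 0 lower, with a median of 0.36.

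Of 7 genes of the tissue factor pathway that passed the filter, 3 were higher in HeyC2 (F3, F2RL1 at 1.12 and THBD at 0.65) and 0 lower, and in SKOV3 3 were higher (TFPI at 1.93, F2R at 0.87 and PROCR at 0.75) and 1 was lower (F3). TFPI, the inhibitor of tissue factor, was at 33.08 and 37.11 FPKM in HeyC2 control and TET1 and at 12.32 and 57.05 FPKM in SKOV3, with relative changes of 0.10 and 1.93. In SKOV3, TFPI was thus higher and F3 lower. F2R and F2RL1 encode receptors of clotting proteases, and THBD and PROCR encode thrombomodulin and the protein C receptor, which restrain clotting. F7, which encodes the ligand of tissue factor, was listed at 0 in all libraries. In the β-catenin destruction complex, 0 of 6 genes were called in HeyC2, and in SKOV3 AXIN2 was higher and GSK3A (-0.61) lower of 7. AXIN2 reached the SKOV3 filter only through the TET1 library, as given above.

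The genes nearest in pattern to the 3 reporters were found by the distance between log2 profiles over the 4 libraries, each centred on the library's all-gene median and the gene's own mean. Nearest to CTGF were MT2A (distance 0.165), C15orf52 (0.218) and PARVB (0.243). MT2A, which encodes a metallothionein, was at 6811.72, 8052.83, 1307.16 and 652.41 FPKM in HeyC2 control, HeyC2 TET1, SKOV3 control and SKOV3 TET1. Nearest to CYR61 were PRR16 (0.0755), SEMA7A (0.135) and FOXD1 (0.204). Nearest to ANKRD1 were ZNF367 (0.498), LINC01057 (0.615) and NID2 (0.737), at larger distances. With 4 libraries such likeness is a description only.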

How the data were processed

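RNA-seq data of HeyC2 and SKOV3 cells were used, with 1 library per group (TET1 and control) and 4 in all. The deposited values are FPKM, obtained by the authors with Bowtie2 2.2.6 (alignment to hg19) and RSEM 1.2.17 from paired-end TruSeq libraries read on a HiSeq-4000. The annotation and filters are not given in the sources used here. The TET1 columns had also been multiplied by a constant, a step read from the values: GAPDH is identical in both columns of a table, and 100% of distinct values below 40 FPKM lie on steps of 0.01 FPKM times that constant. The factor was divided out before a pseudocount of 1 FPKM was added, because a pseudocount added to a scaled library lowers the relative change of weakly expressed genes.

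Groups came from the sample titles. Changes were centred on the median of genes with a mean of at least 1 FPKM and called at 1.5-fold. Comparisons were TET1 against control in each line, HeyC2 against SKOV3 controls, and the change in HeyC2 minus that in SKOV3. No test was possible with 1 library per group. Depth was estimated from the spacing of low FPKM values in single-transcript genes of known length, since it is not stated with the files. Fragments per gene then used the length of the canonical GENCODE transcript on GRCh37, and exact conditional binomial (Clopper-Pearson) intervals used those fragments. They are approximate, as are the fragment numbers, and cover counting error only. The interval of a difference between lines used a normal approximation from the same fragments, without the added 1. Symbols were matched to GENCODE for 23915 of 26506 genes (90.2%), older names through a RefSeq table.

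Named genes were all 9 members, their paralogs, YAP1, WWTR1 and the VGLL genes, TET1 and GAPDH as checks, the highest and lowest gene of each other list in each line, and the 3 genes nearest in pattern to CTGF, CYR61 and ANKRD1. One gene that this rule names is not reported here. Further list genes, the marker genes and CDH5, COL1A1, EPCAM and LINC01013 were named after their values were seen. The members and gene lists were chosen with earlier results of these data known. Calculations were tested on simulated data and used Python 3.11.15, numpy 2.4.6, pandas 2.3.3, scipy 1.17.1 and matplotlib 3.10.9. Alternatives covered the pseudocount, the filter, the scaling and centring, the fold threshold and the members included.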

Additional observations from a re-analysis of the deposited data

Results flagged for a closer look

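For 4 genes the relative change lay above the all-gene median in HeyC2 and below it in SKOV3, with counting intervals on opposite sides of 0. The change in HeyC2 minus that in SKOV3 was 6.27 for F3, 3.62 for ANKRD1, 1.52 for AMOTL2 and 1.13 for CTGF on the log2 scale. With 1 library per group none of these differences was tested, and the intervals leave out variation between cultures. The HeyC2 value of ANKRD1 rests on about 1 fragment in the control (estimate 0.843). CTGF in HeyC2 was 0.16 above the all-gene median and was not called.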

How the results depend on the processing

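The number of genes with the higher change in HeyC2 was 8 of 9 with no filter, before the GAPDH scaling without centring and with TPM rescaling, and 7 of 8 with upper-quartile scaling; it was every gene compared in the other alternatives. The number at least 1.5-fold above lay between 4 and 9. No called value changed sign. The members without ANKRD1 were an alternative chosen after seeing the data. Of the summary values, 193 stayed within their limits and 24 moved. With FPKM as deposited and not centred, the medians were 1.91 in HeyC2, -0.038 in SKOV3 and 2.14 for the difference between lines, all 9 genes were higher in HeyC2, and 1 was higher and 2 were lower in SKOV3; the all-gene medians were then 1.61 and 0.59. The HeyC2 median (0.16) was 0.35 without AXIN1 and 0.35 without genes on the short arm of chromosome 12. The SKOV3 median (-0.61) was -0.42 with no filter, -0.42 before the GAPDH scaling without centring, -0.43 with upper-quartile scaling, -0.39 with TPM rescaling, and -0.79 without AXIN1 or without the genes of that arm. The median between controls (0.06) was -0.21 with no filter, -0.21 without centring and -0.24 with TPM rescaling. The difference between lines (1.01) was 0.72 with a mean of at least 5 FPKM, 0.61 with upper-quartile scaling, 0.76 with TPM rescaling and 0.67 when centred on the 500 genes nearest in expression. At 2-fold, 2 genes were lower in SKOV3, and at 1.2-fold 8 were lower there and 2 in HeyC2. AJUBA in SKOV3 turned positive, up to 0.60, in the uncentred and several other settings, which left 8 of 9 genes below 0. As deposited and not centred, AMOTL2 (0.04), AXIN1 (0.08) and TEAD4 (0.21) were positive as well, and 5 of 9 genes were below 0. The all-gene median was not subtracted in the uncentred, upper-quartile and TPM settings. With no filter the centring removed nothing, so the medians of -0.42 in SKOV3 and -0.21 between controls repeat those before the GAPDH scaling without centring. In SKOV3 it was 0.19 before the GAPDH scaling, 0.18 with upper-quartile scaling and 0.28 with TPM rescaling. Between controls it was -0.27 before the GAPDH scaling and -0.31 with TPM rescaling. What else entered these shifts was not tested. Each TET1 library was compared with the control of its own line, but a fit with the cell lines as pairs was not run. The labels give no shared replicate numbers. No library could be left out, as each group has 1. ANKRD1 in HeyC2 ranged from 1.17 to 4.56 by setting, with about 1 fragment in the control.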
